A study of Mus musculus with 7 samples.

Results

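Larp6, the RNA-binding protein that attaches to collagen mRNAs, was described here together with Col1a1 and Col1a2 (collagen I), Col3a1 (collagen III), Col5a1 and Col5a2 (collagen V) and Vim, which encodes vimentin. These 7 genes were picked by their symbols from the 43346 genes in the deposited tables. Larp6 was already known to differ between alleles in these mice when the set was drawn up, so its difference is described again here and is not independent evidence. RNA was measured in tibial growth plates of 7 male C57BL/6JxCAST/EiJ F1 mice, all 21 days old, by sequencing of total RNA depleted of ribosomal RNA. Proximal and distal growth plates were pooled for each mouse, and the mice were not treated. Each mouse carries 1 chromosome set from C57BL/6J (B6) and 1 from CAST/EiJ (CAST), so the comparison built into the design is between the CAST and B6 copies of each gene inside the same cells. Larp6 was of interest because it lies in a region of chromosome 9 linked to femur length. All mice were of the same cross, so the strain of an allele and the parent that passed it on cannot be told apart.

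Fibrillar collagens are made as procollagen chains that join in threes inside the endoplasmic reticulum, are trimmed outside the cell and assemble into fibrils. Collagen I is the main protein of bone, tendon and perichondrium, while collagen II is that of growth plate cartilage. Collagens III and V are minor partners of collagen I fibrils, and collagen V helps to start them and to limit their width. The Larp6 protein is known to bind a stem-loop that surrounds the start codon of collagen I and III mRNAs and to couple their translation with chain assembly, and filaments of vimentin are known to hold these mRNAs in a stable state. None of these steps was measured here; the values are RNA levels.

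The start codon regions of the collagen I and V genes are shown because the start codon is where Larp6 is known to bind collagen I mRNAs. Each sequence below has 30 bases of the coding strand from the GRCm38/mm10 reference transcript, which carries the B6 base, and the start codon is in capitals.
Col1a1 (chr11:94936357-94936386, plus strand, exon 1): tagggtctagacATGttcagctttgtggac
Col1a2 (chr6:4505828-4505857, plus strand, exon 1): taagtggtagacATGctcagctttgtggat
Col5a2 (chr1:45502897-45502926, minus strand, exon 1): tcatatttagacATGatggcaaactgggtg
Col5a1 (chr2:27886804-27886833, plus strand, exon 1): caccccgccggcATGgacgtacacacccgc

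Col1a1 and Col1a2 had the same base at 24 of the 30 positions. Col5a2 matched each collagen I gene at 13 positions. Col5a1 had 8 matches to Col1a1 and to Col1a2 and 9 to Col5a2. Vim, which is not a collagen gene, matched Col5a2 at 14 positions and the other collagen genes shown at 9 to 11. Larp6 matched the collagen genes shown at 9 to 12. All of these counts include the start codon, which is the same in every gene.

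RNAfold was used to predict the fold of 80 bases around each start codon. The lowest free energy was -29.4 kcal/mol for Col1a2, -28.4 for Col5a1, -26.5 for Col1a1 and -23.8 for Col5a2, against a median of -23.0 for 13979 genes. The predicted pairs that enclosed the start codon numbered 27 in Col1a2, 9 in Col1a1, 9 in Col5a1 and 3 in Col5a2, against a median of 11 over all genes. By energy the collagen I genes were not set apart, since 24.0% of genes had a lower energy than Col1a2 and 34.3% a lower one than Col1a1. In enclosing pairs Col1a2 was above the median and Col1a1 below it, and ranks among all genes were not computed for that count.

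The deposited tables summed to 14098019 to 37849667 estimated counts per mouse, which is more than the read pairs that the labels state on average. Lanes or read ends may have been added up, so a count may not stand for 1 read pair, and counting error may be larger than these totals imply. Of the totals, the 7 members took 8.13% to 13.8%. All 7 members had counts from both alleles in every mouse. Estimated totals were whole numbers, to a tolerance of 0.0001, in all 7 mice for Larp6, Col1a1, Col3a1, Col5a2 and Vim. They were not whole in 3 mice for Col1a2 and in 7 for Col5a1, so some of their reads were divided with other genes and these values are less certain. All markers of growth plate chondrocytes had counts in every mouse, and Col2a1, the collagen II gene, reached 38742 to 80848 CPM, a count divided by the library total (here scaled by the trimmed mean of M-values, TMM) and multiplied by 1000000. The tissue also held RNA of bone, fibrous tissue, blood, muscle and vessels, since every marker on those lists had counts in every mouse. In such bulk tissue, fewer cells of a type and less RNA per cell cannot be told apart.

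Of the 7 members, Larp6 was the one called for a difference between alleles, with more counts from the CAST copy in all 7 mice. The CAST copy had 1.52 times the counts of the B6 copy on average. No collagen member reached the threshold in this comparison, although the unscaled counts of the 5 collagen genes each leaned in 1 direction in all 7 mice. For these genes the lean was between 0.947 and 1.13 times. All mice are of 1 cross and were aligned to the same sequences, so agreement between mice does not separate RNA from read assignment. A gene was called when its false discovery rate (FDR, the adjusted p of edgeR's likelihood-ratio test over 21805 genes) was under 0.20. That rule called 32.6% of all tested genes, 15.4% with CAST higher and 17.2% with B6 higher. Thus 1 called member of 7 is not more than the background share. These shares include X-linked genes, of which a male has 1 copy, and no share for autosomal genes alone is given.

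Larp6 lies at chr9:60712989-60738801 on the plus strand (GRCm38/mm10). Its B6 count ranged from 79.3 in mouse 7 to 190 in mouse 5 with a median of 161, and its CAST count from 106 in mouse 7 to 284 in mouse 5 with a median of 232. The ranges of the alleles overlap between mice because the libraries differ in depth, but inside each mouse the CAST count was the higher one. The log2 ratio of the CAST count to the B6 count was lowest in mouse 7 at 0.41, had its median in mouse 5 at 0.58 and was highest in mouse 4 at 0.78. The mean was 0.61 ± 0.15 (SD, n = 7), and a two-sided exact permutation test, which flips the signs of the ratios, gave p = 0.0156, the smallest that 7 mice allow. The log2 fold change from edgeR was 0.63, with an FDR of 1.17e-07. It stayed between 0.60 and 0.66 when each mouse was left out in turn.

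The CAST allele of Larp6 also differs from the B6 allele in coding bases, and such bases are what lets a read be assigned to an allele. Strain differences of the missense class are shown for that reason, in exon 3 of 3, with 15 reference bases on each side and the changed base in capitals. In the names, the B6 base comes first, then the position on chromosome 9 (GRCm38/mm10, plus strand), then the CAST base.
C60737152T, B6 (chr9:60737137-60737167): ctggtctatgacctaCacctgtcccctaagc
C60737152T, CAST: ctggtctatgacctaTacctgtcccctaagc
A60737422G, B6 (chr9:60737407-60737437): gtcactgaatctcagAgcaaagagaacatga
A60737422G, CAST: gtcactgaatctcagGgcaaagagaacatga

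The change C60737152T falls on the first base of codon 192 of 492 and turns CAC into TAC. The change A60737422G falls on the first base of codon 282 and turns AGC into GGC. How far the Larp6 ratio depends on reads over these or other positions was not tested, since the deposited values are sums per gene.

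The collagen I chains leaned in opposite directions. Col1a1 (chr11:94936224-94953042, plus strand), which encodes the alpha 1 chain, had 623595 ± 268412 B6 counts and 637423 ± 273316 CAST counts (SD, n = 7). Its log2 ratio ran from 0.014 in mouse 2 through a median of 0.0325 in mouse 3 to 0.044 in mouse 1, with a mean of 0.0325 ± 0.00998 (SD, n = 7). Every mouse thus had slightly more Col1a1 counts from the CAST copy.

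Col1a2 (chr6:4504814-4541544, plus strand), which encodes the alpha 2 chain, had 616719 ± 236425 B6 counts and 583546 ± 223613 CAST counts (SD, n = 7). Its log2 ratio ran from -0.0963 in mouse 5 through a median of -0.0798 in mouse 4 to -0.0583 in mouse 7, and the mean was -0.0786 ± 0.0131 (SD, n = 7). Every mouse had slightly more Col1a2 counts from the B6 copy, and the ratios of the collagen I genes did not overlap. Inside each mouse, the Col1a1 log2 ratio exceeded that of Col1a2 by 0.0794 to 0.13, with a mean of 0.111 ± 0.0203 (SD, n = 7; exact permutation p = 0.0156).

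Col3a1 (chr1:45311538-45349706, plus strand), which encodes the single chain of collagen III, had 99020 ± 31355 B6 counts and 97046 ± 31527 CAST counts (SD, n = 7). The log2 ratio ran from -0.0553 in mouse 8 through a median of -0.0231 in mouse 5 to -0.0162 in mouse 3. Slightly more unscaled counts thus came from the B6 copy in each mouse. The mean ratio was -0.0328 ± 0.0161 (SD, n = 7). With TMM factors the edgeR log2 fold change was smaller, at -0.0122. The directions in single mice after such scaling were not tested.

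The collagen V genes both leaned to CAST. Col5a1 (chr2:27886425-28039514, plus strand), the alpha 1 chain, had a log2 ratio from 0.012 in mouse 3 through a median of 0.0655 in mouse 7 to 0.0767 in mouse 1, with a mean of 0.0579 ± 0.023 (SD, n = 7). Col5a2 (chr1:45374321-45503282, minus strand), the alpha 2 chain, had 31286 ± 10264 B6 counts and 35413 ± 11463 CAST counts (SD, n = 7). Its log2 ratio ran from 0.153 in mouse 2 through a median of 0.183 in mouse 4 to 0.209 in mouse 3, with a mean of 0.181 ± 0.0223 (SD, n = 7). The lowest Col5a2 ratio was above the highest ratio of every other collagen member. The Col5a2 log2 ratio was higher than that of Col5a1 in each mouse, by 0.123 ± 0.0424 on average (SD, n = 7; exact permutation p = 0.0156).

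Col3a1 and Col5a2 are next to each other on chromosome 1, with 24614 bases between them, and they are read from opposite strands. Their allele ratios nevertheless differed, with Col5a2 above Col3a1 by 0.173 to 0.237 on the log2 scale, all mice included. The mean difference was 0.213 ± 0.0267 (SD, n = 7; exact permutation p = 0.0156).

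Vim (chr2:13573927-13582826, plus strand), an intermediate filament gene of fibroblasts, chondrocytes and other mesenchymal cells, was not called for a difference between alleles. Its log2 ratio ran from -0.114 in mouse 8 through a median of -0.0269 in mouse 2 to 0.0386 in mouse 5. The CAST count was higher in 2 of 7 mice, and the mean of -0.0265 ± 0.0481 (SD, n = 7) gave p = 0.203 in the exact permutation test. Among the members it was the one without a common direction. Its SD was larger than the 0.00998 of Col1a1 and the 0.0161 of Col3a1, so a lean as small as theirs may have been missed.

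**Figure D1:**
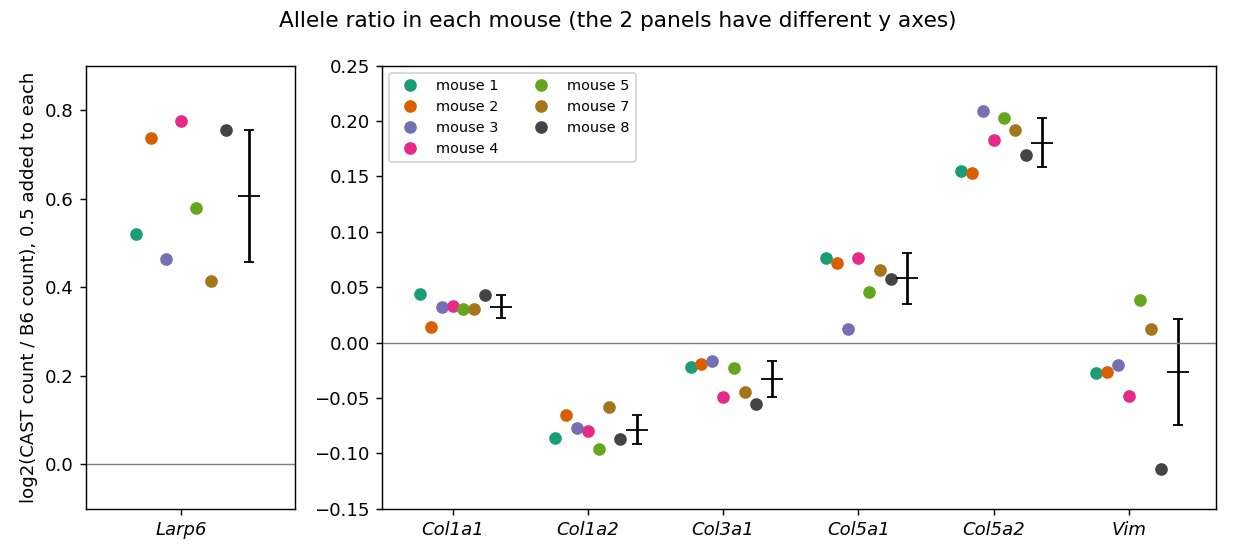
CAST count over B6 count on the log2 scale, with a pseudocount of 0.5, for Larp6 on the left and for the collagens and Vim on the right, with a different y axis in each panel; each point is 1 mouse, and the black mark and bar are the mean and SD of 7 mice. All Larp6 points lie between 0.41 and 0.78, Col5a2 is the highest collagen, Col1a1 and Col1a2 lie on opposite sides of 0, and Vim lies on both sides.

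On the ratios of unscaled counts, the exact permutation p was 0.0156 for each of the 5 collagens, like that for Larp6. In edgeR's likelihood-ratio test, which compares alleles across mice, their FDR was 0.972 for Col1a1, 0.917 for Col1a2, 1.00 for Col3a1, 0.878 for Col5a1 and 0.226 for Col5a2, and for Vim it was 1.00. When the mouse was added as a block, so that alleles were paired within their mouse, edgeR's quasi-likelihood test called 5 of 7 members, against 37.6% of all tested genes. The likelihood-ratio test called 5 members with that block (42.7% of all tested genes) and 6 with the block and 1 library size per mouse (also 42.7%), while DESeq2 without the block called 2 (33.6% of the genes it gave an adjusted p). The FDR of the quasi-likelihood test with the block was 0.000153 for Larp6, 0.000378 for Col1a1, 0.000332 for Col1a2, 0.00148 for Col5a1 and 3.04e-06 for Col5a2. Col3a1 with an FDR of 0.307 and Vim with 0.921 were not called by that paired fit.

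The choice of scaling moved each member by a similar amount. Over 7 fits that changed the scaling, rounding, chromosomes or pairing, the log2 fold change was 0.03 to 0.06 for Col1a1, -0.08 to -0.05 for Col1a2, -0.03 to -0.01 for Col3a1, 0.06 to 0.08 for Col5a1 and 0.18 to 0.20 for Col5a2. That of Larp6 was 0.61 to 0.64. The directions of Larp6 and the 5 collagens were the same in all 7 fits.

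The nearest tested protein-coding gene on each side of a member gave a mixed picture. Lrrc49, 24830 bases from Larp6 on the lower side, had 56.1 B6 and 78.9 CAST counts on average and was called with CAST higher (log2 fold change 0.49, FDR 0.0175 from edgeR), but in 5 of 7 mice (exact permutation p = 0.0625). Uaca, 55740 bases from Larp6 on the other side, had a log2 fold change of 0.01 and an edgeR FDR of 1.00. Next to Col5a1, the ficolin gene Fcnb had 227 B6 and 94.0 CAST counts, a log2 fold change of -1.28 and an edgeR FDR of 8.44e-08, opposite in direction to Col5a1 in all 7 mice. Trdmt1 and St8sia6 beside Vim were called with B6 higher, with log2 fold changes of -0.43 and -0.55 and edgeR FDR values of 0.181 and 0.0643. The neighbours of Col1a1 (Cdc34b and Sgca) and Col1a2 (Bet1 and Casd1), and Gulp1, Rxra and Wdr75 beside the other collagens, had edgeR FDR values of 0.438 to 1.00. Cdc34b had 0.313 B6 and 0.126 CAST counts on average, too few to compare its alleles.

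With both alleles summed and levels divided by length, the members spanned more than 3 orders of magnitude. The collagen I genes were highest and Larp6 was lowest in every mouse. With the longest annotated transcript as the length, Col1a2 had 8355 ± 1627 CPM per kb and Col1a1 7851 ± 2102 (SD, n = 7), followed by Col3a1 with 1337 ± 243. Col5a2 had 379, with a range of 325 to 458. Col5a1 had 242 ± 54.0, Vim 167 ± 16.4 and Larp6 5.57 ± 0.401 CPM per kb (SD, n = 7). Larp6 ranged from 5.13 to 6.19 CPM per kb, and in the same mice Col1a1 was 1004 to 1977 times higher. For comparison, Col1a1 was 0.533 to 1.09 times the level per kb of Col2a1, the main cartilage collagen, with the longest transcript as the length and 0.872 to 1.78 times with the union of exons, so the length decides which of them is higher.

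Of the 21 pairs of members, 20 differed in level per length under the exact permutation test over mice, with a Benjamini-Hochberg adjusted p of 0.0164. Which pair did not pass depended on the length used. With the longest transcript it was Col1a1 and Col1a2 (adjusted permutation p = 0.125), whose ratio was 0.786 to 1.10, with Col1a1 higher in 1 of 7 mice. With the union of all annotated exons, which is 12426 bases for Col1a2 against 5348 in its longest transcript, Col1a1 was above Col1a2 in all 7 mice by 1.65 to 2.32 times. Under that length the pair that did not pass was Col5a1 and Col5a2 (adjusted permutation p = 0.125), with a ratio of 0.761 to 1.07. With the longest transcript that ratio was 0.531 to 0.747, and Col5a2 was higher in all 7 mice.

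**Figure D2:**
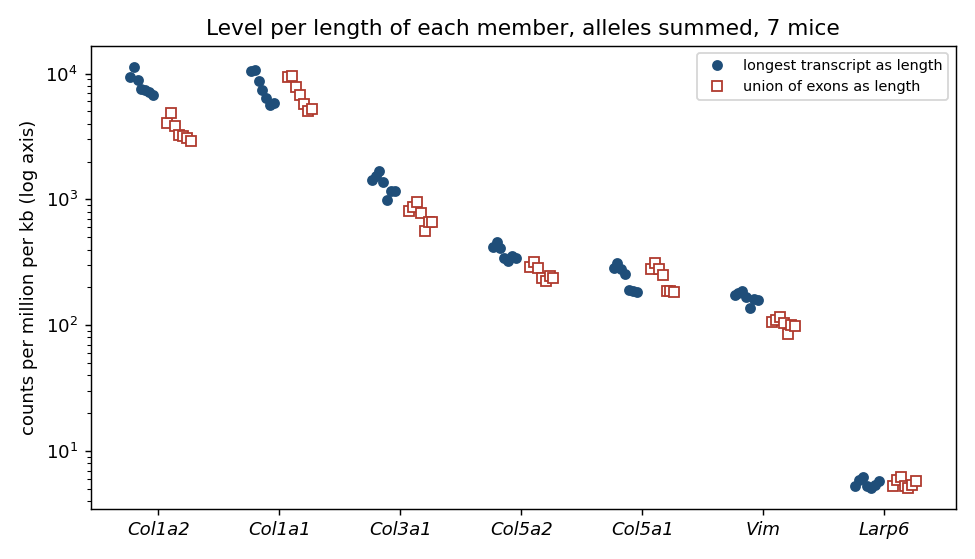
Level of each member with both alleles summed, in CPM per kb on a log axis, with the longest transcript (filled circles) or the union of exons (open squares) as the length; each point is 1 of 7 mice. Col1a2 and Col1a1 overlap with the longest transcript and separate with the union of exons, and Larp6 lies at 5.13 to 6.19 under both.

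From mouse to mouse the collagens varied more than Larp6. After TMM scaling, Col1a1 ranged from 32602 CPM in mouse 7 through a median of 49326 to 65660 in mouse 2, which is 2.01 times, with a coefficient of variation of 26.5%. Col5a1 ranged from 1541 through 2177 to 2746, Col1a2 from 36381 through 45523 to 62923 and Col3a1 from 5345 through 7236 to 9019 CPM. Col5a2 ranged from 2089 through 2538 to 3162. Larp6 ranged from 11.8 in mouse 1 through 14.4 to 15.1 in mouse 2, or 1.28 times, with a coefficient of variation of 9.74%. Which mouse was lowest for Larp6 depended on the scaling, since without TMM factors it was mouse 5 at 12.5 CPM, with mouse 1 at 12.9.

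Mice 5, 7 and 8 had the lowest scaled level of each of the 5 collagens, apart from the other 4 mice. Col1a1 was 36547, 32602 and 35012 CPM in these mice and at least 49326 in mice 1 to 4, and Col5a1 was 1541, 1556 and 1572 against at least 2177. For Col5a2 the gap was narrow, from 2311 in mouse 7 to 2538 in mouse 1. Without TMM scaling mouse 4 at 2266 CPM was below mouse 7 at 2356. The Col1a2 gap without TMM scaling was also narrow, from 39763 CPM in mouse 5 to 40136 in mouse 4. Neither Larp6 nor Vim was split in this way, with Larp6 at 12.1, 12.9 and 14.4 CPM in mice 5, 7 and 8.

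After TMM scaling, some of the summed marker lists were split between the same mice. The 6 blood and marrow markers summed to 6265 to 8315 scaled CPM in mice 5, 7 and 8 and to 3336 to 5045 in the others. The 8 markers of fibroblasts, perichondrium and tendon summed to 1997 to 2067 against 2171 to 2597. The 4 endothelial markers summed to 171 to 183 against 193 to 228. That endothelial split depended on TMM scaling, which raised the values of mouse 4 most (lowest TMM factor, 0.882). The sums for chondrocytes (56735 to 105292), osteoblasts and osteocytes (2973 to 3887) and muscle (3209 to 6055) were not split between these mice. Abundant genes weigh most in such sums. Hbb-bs had 3085 to 7686 scaled CPM on the blood list, and Fmod 1029 to 1541 on the fibroblast list. On the chondrocyte list Col2a1 had 38742 to 80848. The part of other cell types in the collagen levels was not tested.

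**Figure D3:**
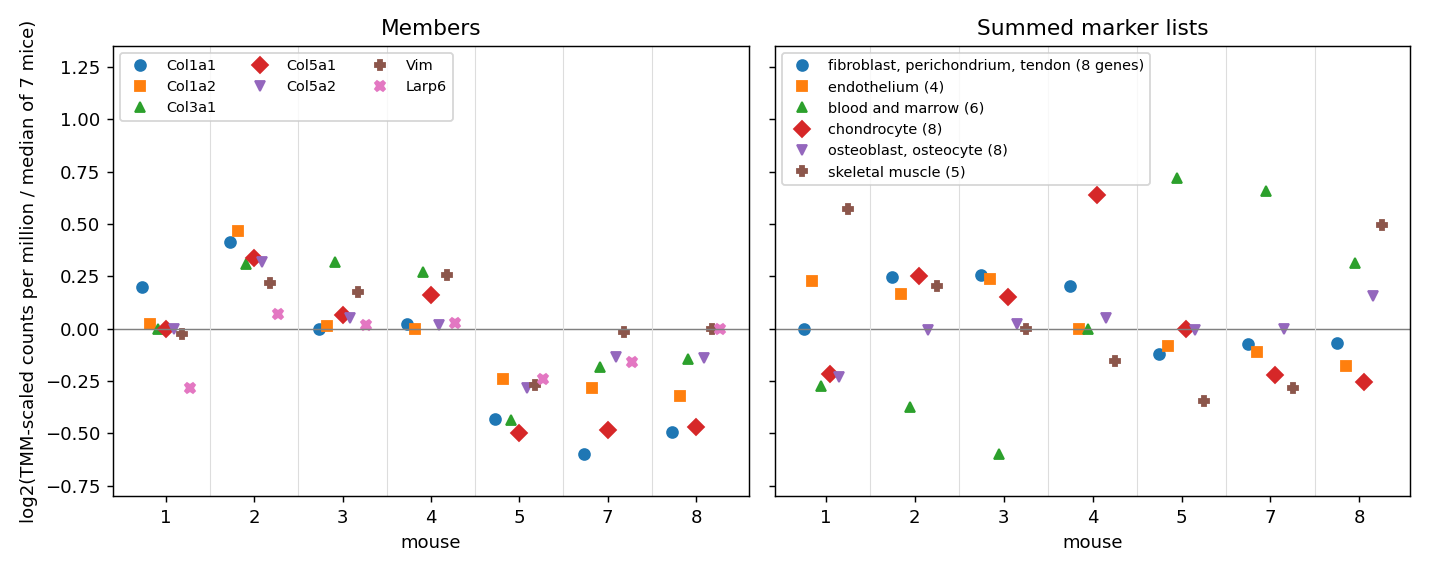
TMM-scaled CPM of the members (left) and of summed marker lists (right), each as the log2 ratio to its own median over the 7 mice; each symbol is 1 gene or list in 1 mouse. The 5 collagens lie below 0 in mice 5, 7 and 8, where the blood and marrow list is at its highest, while Larp6 and Vim are not separated into the same sets of mice.

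Because the collagen levels fell into separate sets of 3 and 4 mice, no correlation between collagen members is given, and sets of that size are too small to test one. For Larp6 and Vim, Pearson's r over 7 mice was 0.807 (exact permutation p = 0.0327, adjusted p = 0.0573 over 21 pairs of members). Spearman's rho was 0.929 (exact permutation p = 0.00675, adjusted p = 0.0354). Without the 2 mice farthest from the median, r was 0.748. With CPM of all counts, or of protein-coding counts, r was 0.679 and 0.661, and the adjusted permutation p was 0.124 and 0.157.

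Among 9582 protein-coding genes that reached 100 counts per mouse, the genes whose scaled levels followed Larp6 most closely over the 7 mice were Fkbp9 (r = 0.972), Kdelr2 (0.953), Gpr180 (0.944), Map3k10 (0.937) and Ddrgk1 (0.937). Vim was at rank 130 and Col1a1 at rank 2362. For Col1a1 the closest in rank were Ssc5d, Dpt, Pcsk6, Adamts14 and Adamts4, with no r given because that ranking rests on the separate sets of mice. These rankings describe 7 libraries and have no test. Adamts14, which trims the amino end of procollagen, also stands on the list of procollagen processing genes, and Dpt, a matrix protein, on that of fibroblast markers.

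Genes known to work with Larp6 or on fibrillar collagens were mixed in their allele ratios. Of the 5 proteins known to act with Larp6, all were tested. Strap, an adaptor protein, was called with CAST higher (log2 fold change 0.26, edgeR FDR 0.0666, 7 of 7 mice). Myh10, a nonmuscle myosin heavy chain, was called with B6 higher (log2 fold change -0.28, edgeR FDR 0.0273, 6 of 7 mice), though its totals were not whole in any of the 7 mice. The helicase Dhx9, the prolyl isomerase Fkbp3 and the myosin Myh9 were not called, with log2 fold changes of -0.02, -0.13 and -0.14. With the mouse as a block in edgeR's quasi-likelihood test, 3 of the 5 were called, Strap and Myh10 again (FDR 0.0889 and 0.06) and Myh9 (FDR 0.000114), which had more B6 counts in all 7 mice. The median of the list was -0.13, beside 0.05 for the members and 0.01 for all tested genes.

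Of the 6 other proteins with the La module, the RNA-binding fold of Larp6, Larp7 was called with CAST higher (log2 fold change 0.37, edgeR FDR 0.101) and Larp4 with B6 higher (log2 fold change -0.23, edgeR FDR 0.155), and the median was 0.07. Both were also called with the mouse as a block (edgeR FDR 0.0547 and 0.101), and no other gene of this list was. The shares over all tested genes were 32.6% without the block and 37.6% with it. Larp1 had equal counts from both alleles in every mouse, so no allele difference could be read from it. Larp6 had the largest log2 fold change of the 7 La-module genes and was the one with an FDR under 0.05.

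Of the 6 other fibrillar collagens, Col27a1, a cartilage collagen, was called with CAST higher (log2 fold change 0.28, edgeR FDR 0.0452, 7 of 7 mice), and the median was 0.01. Col2a1 had 721474 B6 and 688572 CAST counts on average, a log2 fold change of -0.04 and an edgeR FDR of 0.989, with B6 higher in all 7 mice. Of these 6 genes, 5 were called once the mouse was a block in edgeR's quasi-likelihood test. Over all tested genes that test called 37.6%, and the likelihood-ratio test without the block called 32.6%. Of the 7 procollagen processing genes, which cut off the end domains of the chains or help in it, Adamts3 was called with CAST higher (log2 fold change 0.20, edgeR FDR 0.149, 5 of 7 mice), but not with the mouse as a block (FDR 0.237), and the median was 0.09. Bmp1, the main enzyme for the carboxyl end, leaned to B6 in all 7 mice with a log2 fold change of -0.16 and an edgeR FDR of 0.392, and pairing by mouse called it (edgeR FDR 7.21e-05), as were Adamts2, Adamts14, Pcolce and Pcolce2.

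**Figure D4:**
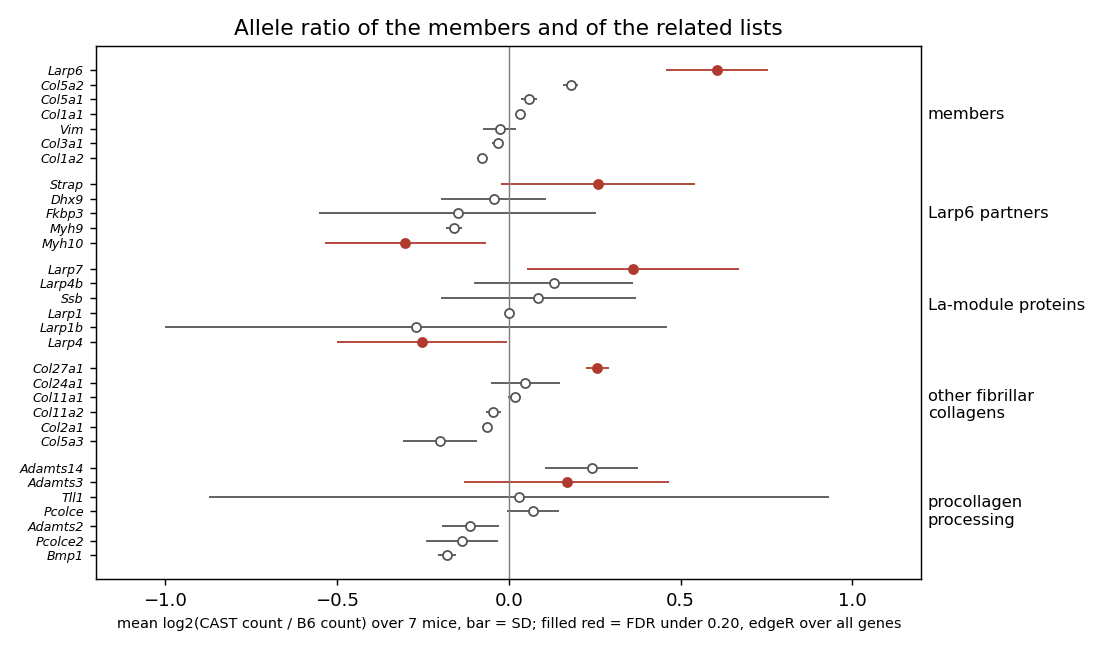
CAST count over B6 count on the log2 scale, as the mean of 7 mice with the SD as a bar, for the members and for 4 lists of related genes; filled red points passed 0.20 in edgeR's FDR over all tested genes. Larp6 is the one filled member and the farthest to the right of those filled, and each of the other lists holds filled points at smaller ratios.

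Of the tissue markers, called genes numbered 1 of 8 on the chondrocyte list (Sox9, CAST higher), 4 of 8 on the osteoblast and osteocyte list and 3 of 8 on the fibroblast, perichondrium and tendon list (all B6 higher). Among these, Phex and Tnmd are X-linked, and a male has 1 X chromosome, so they hold no comparison of alleles in the same cell. Bglap2 had 9747 B6 and 15.8 CAST counts on average. Totals of Bglap2 and of Bglap, also called, were not whole in any of the 7 mice, so their allele counts are less certain. Called genes numbered 1 of 6 on the blood and marrow list and none of the 5 muscle and 4 endothelial markers in edgeR's likelihood-ratio test. With the mouse as a block in edgeR's quasi-likelihood test, the called markers were 7 of 8, 6 of 8, 6 of 8, 3 of 6, 4 of 5 and 0 of 4, with the lists in the same order. Over all tested genes the shares called were 32.6% in the likelihood-ratio test and 37.6% with the block. Tested genes include ones with almost no counts, so these shares are a weak baseline for abundant markers.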

How the data were processed

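Total RNA of 7 growth plate samples was sequenced as paired ends. The authors built a transcriptome with both strains' alleles on mm10, aligned reads to it with Bowtie, and deposited unnormalized EMASE estimated counts per gene and allele. Reads matching more than 1 allele or gene were divided, which leaves fractions, and each lane and each read end was processed separately. Counts are thus not independent molecules, and a read that fits both alleles carries no allele difference of its own. Depth was 14098019 to 37849667 counts per mouse, so Larp6, with 185 to 474 counts, carries more counting error than the collagens.

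Names and coordinates came from GENCODE M21, which held 42462 of the 43346 gene identifiers. A gene was tested if each mouse had some count for it from either allele, which left 21805. The test was edgeR 4.0.16 (R 4.3.3, limma 3.58.1) on rounded counts, with TMM factors, glmFit and glmLRT, and adjusted by Benjamini-Hochberg over all tested genes. Single ratios used unscaled counts with a pseudocount of 0.5 and exact sign-flip permutation tests over mice (numpy 2.4.6). Ranks for Spearman's rho came from scipy 1.17.1. Pairing comes from both alleles being of 1 animal. Over the 15111 genes reaching 10 counts per mouse, the deviations of both alleles of a mouse had a mean correlation of 0.0588, lowest -0.066. Between alleles of different mice the highest correlation was 0.174, above that same-mouse mean. The fit was tested on simulated counts.

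Alternatives were the quasi-likelihood test, DESeq2 1.42.0, the mouse as a block, other library sizes, filters, chromosomes, rounding, thresholds, pseudocounts, lengths and scalings, and each mouse left out in turn. A block with 1 library size per mouse was chosen after seeing the data. The members, lists and tests were chosen with earlier results of these data known. Named genes were the members, list genes that were called or that define a list, the nearest tested protein-coding gene on each side of a member, and the 5 genes most correlated with Larp6 or Col1a1. Bmp1, Adamts2, Adamts14, Pcolce, Pcolce2 and the uncalled partners were named after their values were seen.

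Start codon regions, that of Col3a1 not being reported here, came from GENCODE M21 transcripts and were folded with RNAfold 2.7.2. Positions of the Larp6 variants came from the study's supplementary list. Femur measurements and linkage mapping were not analysed here.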

Additional observations from a re-analysis of the deposited data

Results flagged for a closer look

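Of 22 sets of 7 values examined for a single far value, 1 had one, where chance would give about 1.1. In mouse 1 the 8 osteoblast and osteocyte markers summed to 2973 scaled CPM, or 11.54 on the log2 scale, with the other 6 mice between 11.76 and 11.92. The same mouse had the highest TMM factor, 1.09, and the lowest share of the small noncoding RNAs Rn7s1, Rn7s2 and Rn7sk, 15.5% of its counts against up to 23.8% in the others. Whether these values are related was not tested.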

How the results depend on the processing

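Without pairing, edgeR's likelihood-ratio test called 1 member (32.6% of all tested genes) and DESeq2 called 2 (33.6% of the genes it gave an adjusted p). Pairing alleles by mouse as a block gave 5 members in the likelihood-ratio test (42.7% of all tested genes) and 5 in the quasi-likelihood test (37.6%). The block with 1 library size per mouse, an alternative chosen after seeing the data, gave 6 (42.7%). The share of all tested genes thus also rose with pairing. Tested genes include ones with almost no counts, so these shares are a weak baseline for the deeply counted collagens. Under these settings, named in the order DESeq2 (Col5a2 only), the 2 block fits and the block with 1 library size, the log2 fold changes that newly passed were 0.19, 0.20, 0.20 and 0.18 for Col5a2, then 0.0526, 0.0526 and 0.0325 for Col1a1, -0.0585, -0.0585 and -0.0786 for Col1a2, 0.0778, 0.0780 and 0.0575 for Col5a1, and -0.0324 for Col3a1 under the last setting alone. Without mouse 8 the log2 fold change of Vim was 0.00643, against -0.00886 with all mice and -0.0176 to 0.00643 over the mice left out. Leaving out 1 mouse at a time left 1 member called each time. It gave 20 to 21 pairs of members that differed in level per length. The pairs that passed the correlation test across mice numbered 0 to 9, with 0 without mouse 2 and 0 without mouse 5. With all mice 9 passed, and 6 with CPM of all or of protein-coding counts. Of those 9, 8 were collagen pairs and the other was Col3a1 and Vim. Collagen levels fell into separate sets of mice, so these counts are not read as correlation. Of the 98 allele differences with 1 mouse left out, 97 kept their direction and side of the threshold, as did 70 of the 84 under other settings. With 7 mice no sign-flip p can go below 0.0156, and Larp6, with as few as 185 counts in a mouse, has the widest spread of ratios.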
